A study of Rattus norvegicus with 4 samples.

Results

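The nuclear-encoded subunits of the mitochondrial respiratory chain and of ATP synthase were examined by complex in rat kidney. Members were chosen by a rule on the gene symbol, with earlier results of these data known. They were the probe sets whose platform symbol began with Ndufa, Ndufb, Ndufc, Ndufs or Ndufv and a number. Also taken were those whose symbol was Sdha, Sdhb, Sdhc, Sdhd or Cyc1. The others began with Uqcr, with Cox and a number from 4 to 8, or with Atp5. The rule took 91 of the 15866 probe sets on the array that are not controls. They comprised 38 of complex I, 5 of complex II, 9 of complex III, 18 of complex IV and 21 of complex V, which is ATP synthase. Of these, 84 probe sets carried 1 gene symbol and stood for 79 of the 10411 genes named by such probe sets, and 7 carried several symbols, so those 7 were counted but are not named. The symbols also brought in proteins that are not subunits in the strict sense, such as Atp5if1, the inhibitor of ATP hydrolysis, Cox7a2l, a factor of respiratory supercomplexes, and Cox6c-ps1, a pseudogene.

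Kidney RNA came from male rats aged 9 weeks of 2 strains, the spontaneously hypertensive rat (SHR), an inbred model of high blood pressure, and Brown Norway (BN), a strain with normal blood pressure. Within each strain 1 group had been exposed to nicotine before birth and 1 to saline, and the series addresses what that exposure leaves in the kidney. Total RNA of 13 animals was pooled for SHR nicotine, and of 12 animals for each of SHR saline, BN nicotine and BN saline. Each pool was read on 1 Affymetrix RAE-230A array, so the data hold 4 arrays and no spread between animals.

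In the inner mitochondrial membrane, complex I takes electrons from NADH and complex II takes them from succinate, both passing them to ubiquinone. Complex III hands them to cytochrome c, complex IV reduces oxygen, and the proton gradient made by complexes I, III and IV drives complex V to make ATP. The kidney depends heavily on this chain, because the proximal tubule and the thick ascending limb spend most of their ATP on salt transport and hold dense mitochondria. Complex II is also the citric acid cycle enzyme succinate dehydrogenase.

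Kidney markers were read first, because mitochondrial content differs between nephron segments. All 8 proximal tubule marker genes were on the array, and their 9 probe sets summed to a signal of 18491 in SHR nicotine, 19095 in SHR saline, 17346 in BN nicotine and 17439 in BN saline. Of these 9 probe sets, 5 were higher and 2 lower in SHR (limma, Benjamini-Hochberg at 0.05). Thick ascending limb markers passed in both directions, with Umod 1.30-fold higher and Slc12a1 1.70-fold lower in SHR (limma adjusted p = 0.000243 and 1.11e-06), and their 5 probe sets summed to 7883 and 8027 in the SHR pools and 7298 and 7260.0 in the BN pools. Other markers that passed were lower for Slc12a3 (distal tubule), Aqp2 and Aqp3 (collecting duct), Podxl (podocyte), Vwf (endothelium) and Lpl (adipocyte), and higher for Scnn1g (collecting duct), Slc4a1 (intercalated cell), Kdr (endothelium), Lyz2 (immune cell), Col1a2 and Col3a1 (fibroblast). The 6 probe sets of immune cell markers summed to 3628 and 3061 in SHR nicotine and saline and 2547 and 2296 in BN nicotine and saline, with the defining marker Ptprc below the floor of 44.4 on all arrays. The 6 probe sets of smooth and striated muscle markers summed to between 336 and 424 on the 4 arrays, and the 4 of adrenal markers to between 20.9 and 41.1, with none at that floor, which is explained below. The signal of β-actin at its 3' end was 1.34 and 1.39 times that at its 5' end in the SHR pools, and 1.49 and 1.54 times in the BN pools. For Gapdh the same ratio was 1.09 and 1.07 in the BN pools, and the SHR pools lay on either side of these, with SHR nicotine at 1.11, so the strains overlapped. The part of these cell markers and of the β-actin ratio in the strain results was not tested. In whole kidney RNA a different share of a cell type and a different RNA level per cell cannot be told apart.

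The promoters of the member genes were searched for the letters of 3 regulator motifs. Nuclear respiratory factor 1 (NRF1), ETS proteins such as nuclear respiratory factor 2, and YY1 are textbook regulators of respiratory chain genes. RefSeq promoters of the GRCr8 build, an assembly of a BN rat, covered 70 of the 79 genes, from 250 bases before to 50 after the annotated start. The 3 motifs were searched on both strands as GCGCANGCG for NRF1, CCGGAAG for ETS and AANATGGCG for YY1. The sequences below run 5′ to 3′ over the 120 bases before the start, for the genes whose transcripts passed the strain test and whose stretch held a match. Capitals mark the matches; the last base of the Sdha stretch is the first base of a match that runs past the start. The first 3 genes had lower signals in SHR and the others had higher signals.
Sdha (chr1:30764433-30764552, strand +): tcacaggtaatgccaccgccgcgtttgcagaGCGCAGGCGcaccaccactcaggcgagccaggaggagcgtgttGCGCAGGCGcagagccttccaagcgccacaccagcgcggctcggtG
Ndufv3 (chr20:9613666-9613785, strand +): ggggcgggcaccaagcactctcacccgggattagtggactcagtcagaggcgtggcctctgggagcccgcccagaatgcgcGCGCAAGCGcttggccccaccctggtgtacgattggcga
Cox7a2l (chr6:16936454-16936573, strand +): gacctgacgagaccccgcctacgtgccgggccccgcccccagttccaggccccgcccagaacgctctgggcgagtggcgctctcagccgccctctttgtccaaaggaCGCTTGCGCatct
Ndufa12 (chr7:30658196-30658315, strand +): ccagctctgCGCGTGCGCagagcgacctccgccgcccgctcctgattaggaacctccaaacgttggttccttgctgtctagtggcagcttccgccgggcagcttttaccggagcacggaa
Ndufb7 (chr19:41477292-41477411, strand -): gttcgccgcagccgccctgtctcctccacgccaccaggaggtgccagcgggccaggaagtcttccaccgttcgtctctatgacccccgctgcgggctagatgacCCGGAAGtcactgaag
Uqcrh (chr5:134790883-134791002, strand -): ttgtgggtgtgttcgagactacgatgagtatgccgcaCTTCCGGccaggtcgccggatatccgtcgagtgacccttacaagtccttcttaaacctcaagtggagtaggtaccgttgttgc

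At least 1 of the 3 motifs was found in 43 of the 70 member promoters, or 61.4%, against 35.5% of the 4625 promoters of all genes tested on the array and 16.4% of all 27457 promoters in the table. NRF1 letters were found in 24.3% of member promoters, against 696 of the 4625 promoters of tested genes and 6.26% of all promoters. ETS letters were found in 28.6% of member promoters and 19.7% of those of tested genes (9.22% of all). YY1 letters were found in 24.3% of member promoters and 7.52% of those of tested genes (3.33% of all), and 13 of the 17 YY1 matches in member promoters lay at or after the start. Matches of different motifs did not overlap in any member promoter, and 10 promoters held at least 2 of the 3 motifs. General promoter letters did not follow this order, since the Sp1 letters GGGCGG were found in 42.9% of member promoters and 65.6% of those of tested genes, and CCAAT in 34.3% and 39.1%. By complex, at least 1 of the 3 motifs was found in 20 of 33 promoters of complex I, 3 of 4 of complex II, 5 of 6 of complex III, 4 of 12 of complex IV and 11 of 15 of complex V. None of the 12 complex IV promoters held the YY1 letters. A match is a description of the letters and not a site shown to be bound.

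**Figure D1:**
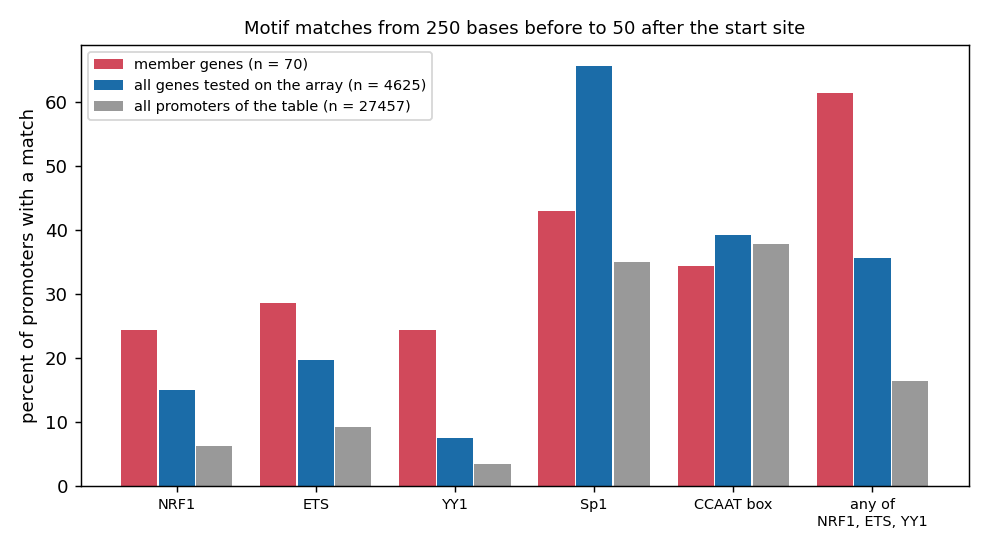
Percent of promoters with a motif match (vertical axis) for member genes (n = 70), all genes tested on the array (n = 4625) and all promoters of the table (n = 27457); no error bars, since each bar is a count over promoters. The bars for any of NRF1, ETS and YY1 stand at 61.4%, 35.5% and 16.4%, while the member bar is the lower one against tested genes for Sp1 and the CCAAT box.

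Most members were among the bright probe sets of the kidney array. Of the 91, 80 reached the level needed for a test, which was 88.9 in the higher strain mean and is 2 times a floor of 44.4 set at the 40th percentile of all signals, and 73 of these 80 lay at or above 500 on all 4 arrays. The 11 that were not tested belonged to 10 genes, and 7 of them lay below the floor on every array. They included isoforms known from other tissues. Cox6a2 and Cox8b, the heart and skeletal muscle forms of 2 complex IV subunits, had signals between 4.0 and 12.5. Their ubiquitous counterparts were both well measured, with Cox6a1 between 1829 and 2095 and Cox8a between 4310 and 5139. Cox6b2, a testis form, lay between 0.9 and 6.6. Cox4i2, the lung form of subunit 4, read 87.3 in SHR nicotine, 56.8 in SHR saline, 61.6 in BN nicotine and 53.6 in BN saline, while the ubiquitous Cox4i1 lay between 3491 and 3621. Signals of different probe sets are on no common scale, so these ranges show only which probe sets were above background. Cox7a1, the muscle form of subunit 7a, read 25.1 and 14.8 in SHR nicotine and saline and 59.4 and 32.6 in BN nicotine and saline. Ndufa4l2, a relative of Ndufa4 known from hypoxia, lay below the floor on all 4 arrays.

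The strain comparison asked whether the chain as a whole, or single subunits, differed between SHR and BN kidneys. Single subunits did: 14 of the 80 tested members passed, with 8 higher and 6 lower in SHR, and the others did not pass (limma with strain and treatment as factors, Benjamini-Hochberg adjusted p under 0.05 over all probe sets). The lower group was led by Ndufb8 of complex I and by Sdha, the catalytic subunit of complex II. The higher group was mostly complex I. In the grouping by symbol, complex I had 6 higher and 2 lower of 36; the 6 include Ndufa4, which is now counted with complex IV, so 5 are subunits of complex I itself. Complex II had 1 lower of 5, complex III 1 higher of 9, complex IV 1 higher and 1 lower of 12, and complex V 2 lower of 18.

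Against all probe sets tested, the members did not stand out by the number of calls. Among probe sets with a mean at or above 500, a smaller share of members passed than of all probe sets. The 14 calls are 17.5% of the members, and 1270 of all 7047 probe sets tested passed, or 18.0%. Of the members 8 of 80 were called higher, where 8.63% of all probe sets were, and 7.50% were called lower, where 9.39% of all probe sets were. At an unadjusted p under 0.05 the shares were 30.0% and 30.4%. Among probe sets with a mean at or above 500 13 of 75 members passed, or 17.3%, against 452 of 1414, or 32.0%. The strain differences of the members were also spread less widely, with an SD of 0.16 on the log2 scale against 0.35 for all probe sets and 0.37 for those at or above 500. The median member difference was 0.040, a small shift towards SHR, against 0.0024 over all probe sets. Of the 80 differences 53 were positive, or 66.2% against 50.5%. At or above 500 the median was 0.045 for members and -0.017 for all such probe sets, with 50 of 75 and 46.2% positive.

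**Figure D2:**
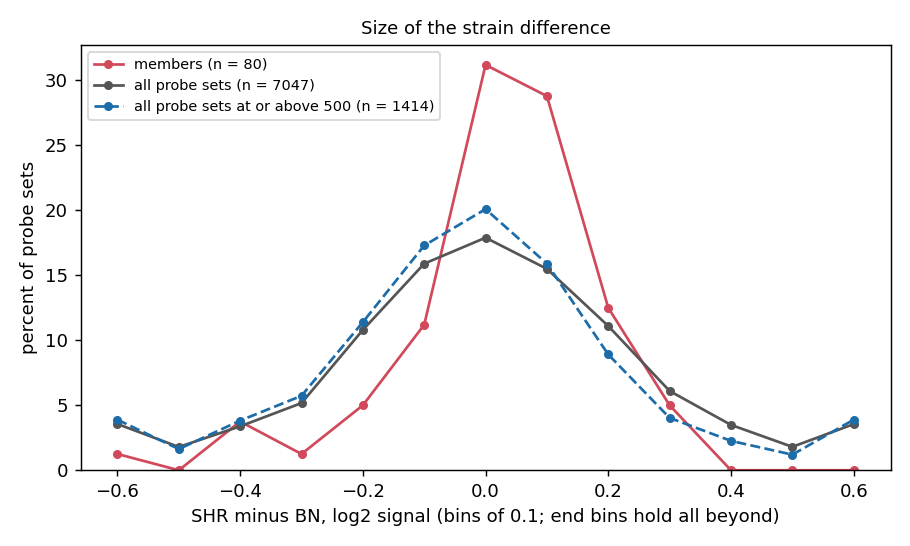
Percent of probe sets (vertical axis) in bins of the SHR minus BN difference in log2 signal (horizontal axis), for the 80 tested members, all 7047 probe sets tested and the 1414 at or above 500; lines join bin values and the end bins hold everything beyond. The member line is the narrowest, with an SD of 0.16 against 0.35 for all probe sets.

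Both SHR pools lay above both BN pools for 33 members, or 41.2%, against 30.8% of all probe sets tested. Both lay below for 21 members, or 26.2%, against 28.9%. Among probe sets at or above 500, both SHR pools lay above for 32 of 75 members and below for 20. Of all 1414 such probe sets, 462 lay above and 530 below. The strain difference measured in the saline pools and that measured in the nicotine pools, which share no array, had the same sign for 61 of the 80 members, with a correlation across members of 0.607. Over all 7047 probe sets the signs were the same for 4984, and that correlation was 0.719. At or above 500 the signs were the same for 1107 of 1414, with a correlation of 0.894. These are correlations across probe sets of the same 4 arrays, and probe sets are not independent replicates.

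The calls rest on few arrays. With 1 array left out and strain as the only factor, 1 member passed without SHR nicotine (Ndufv3), 7 without SHR saline, 1 without BN nicotine (Sdha) and 3 without BN saline, so no member passed in all 4 of these fits; the same strain-only fit of all 4 arrays gave 11. As shares these were 1.25%, 8.64%, 1.25% and 3.75% of members, against 8.61%, 8.47%, 5.26% and 5.63% of all probe sets in the same fits. No called member changed sign in any of them.

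The 6 higher members grouped with complex I include Ndufa4, and the other 5 lay in both arms of the enzyme. Ndufv2, an iron-sulfur subunit of the NADH-oxidising head, read 1721 in SHR nicotine and 1658 in SHR saline, and 1431 in BN nicotine and 1470.0 in BN saline. The SHR pools were above both BN pools, by 0.22 ± 0.066 on the log2 scale (SE from the limma fit, 2 pools a strain, limma adjusted p = 0.0274). Ndufa12, an accessory subunit beside that head, read 999 and 1038 in SHR nicotine and saline and 864 and 861 in BN nicotine and saline. It was higher in SHR by 0.24 ± 0.070 (limma adjusted p = 0.0240), with no overlap. Ndufs3, a core subunit of the arm that carries electrons to ubiquinone, read 1123 and 1074 in the SHR pools and 928 and 914 in the BN pools, in the same order. Its difference was 0.25 ± 0.069 (limma adjusted p = 0.0154).

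In the membrane arm, Ndufb7 read 684 in SHR nicotine, 627 in SHR saline, 568 in BN nicotine and 527 in BN saline, higher in SHR by 0.26 ± 0.077 (limma adjusted p = 0.0252). Ndufb11, another membrane arm subunit and one encoded on the X chromosome, read 1955 in SHR nicotine, 1817 in SHR saline, 1278 in BN nicotine and 1822 in BN saline. Here the strains overlapped, because the BN saline pool lay above the SHR saline pool, and the BN nicotine pool alone was low. The fitted difference of 0.30 ± 0.098 (limma adjusted p = 0.0391) fell to 0.049 without the BN nicotine pool and was 0.56 without the BN saline pool. Ndufa4, which was first described in complex I and is now counted with complex IV, read 3238 and 3054 in SHR nicotine and saline and 2422 and 2589 in BN nicotine and saline. It was the member with the largest positive difference, 0.33 ± 0.066 or 1.26-fold (limma adjusted p = 0.00158), and the pools of the strains did not overlap.

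The 2 lower members of complex I had the largest differences of that complex. Ndufb8, a membrane arm subunit often used as a marker of assembled complex I, read 171 in SHR nicotine, 247 in SHR saline, 304.5 in BN nicotine and 324 in BN saline. Both SHR pools lay below both BN pools, and the SHR nicotine pool was the lowest. The difference was -0.61 ± 0.11 on the log2 scale, or 1.52-fold lower in SHR (limma adjusted p = 0.000907), and it was -0.34 without the SHR nicotine pool. Ndufv3, an accessory subunit of the NADH-oxidising head, read 695 and 743 in SHR nicotine and saline against 948 and 922 in BN nicotine and saline, a difference of -0.38 ± 0.074 (limma adjusted p = 0.00122). A second Ndufv3 probe set, between 59.1 and 80.3, was too dim to test. Ndufv1, which holds the flavin, did not pass, at -0.098 (limma adjusted p = 0.384). Neither did Ndufs1, an iron-sulfur subunit, at 0.074 (limma adjusted p = 0.541).

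**Figure D3:**
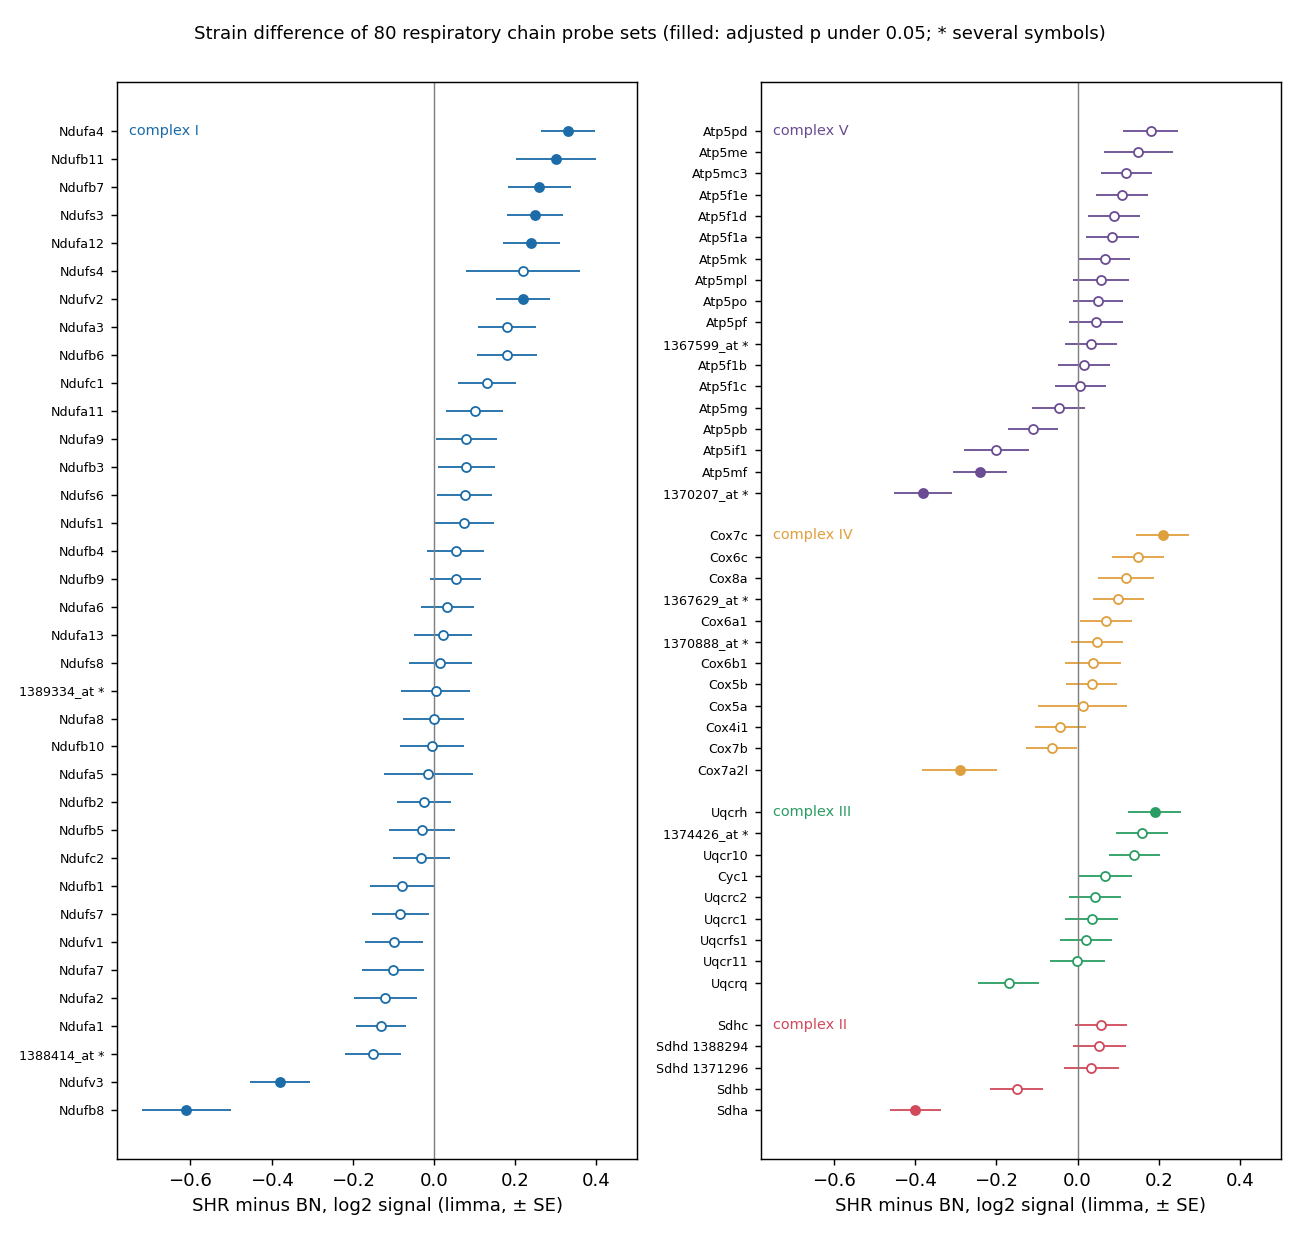
Strain difference of the 80 tested members as SHR minus BN in log2 signal (horizontal axis), 1 row a probe set and grouped by complex; points are limma estimates, bars are ± 1 SE and filled points passed at an adjusted p under 0.05. Filled points lie on both sides of 0 in complex I, from -0.61 for Ndufb8 to 0.33 for Ndufa4.

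In complex II the catalytic flavoprotein Sdha was the subunit that passed. Its signal was 1863 in SHR nicotine, 2023 in SHR saline, 2431 in BN nicotine and 2706 in BN saline. Both SHR pools were below both BN pools, by -0.40 ± 0.063 or 1.32-fold (limma adjusted p = 0.000166), and the difference lay between -0.48 and -0.32 when any 1 array was left out. Sdhb, the iron-sulfur subunit that binds Sdha, read 1867 and 1928 in SHR nicotine and saline and 2158 and 2055 in BN nicotine and saline. These strains did not overlap either, but the difference of -0.15 ± 0.065 did not pass (limma adjusted p = 0.126). The membrane anchors had small differences of the other sign that did not pass, 0.058 for Sdhc and 0.034 and 0.054 for the 2 probe sets of Sdhd (limma adjusted p between 0.584 and 0.779). The Sdha promoter above held the NRF1 letters 3 times, with first bases 89, 46 and 1 bases before the start.

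In complex III, Uqcrh, the hinge protein that helps cytochrome c1 bind cytochrome c, read 2056 and 1955 in SHR nicotine and saline and 1739 and 1764 in BN nicotine and saline. It was higher in SHR by 0.19 ± 0.065, close to the threshold (limma adjusted p = 0.0457). The electron-carrying subunits differed little, with Cyc1 (cytochrome c1) at 0.068 and Uqcrfs1 (the Rieske iron-sulfur protein) at 0.021 on the log2 scale. Uqcrq, a small subunit bound to cytochrome b, had the lowest difference of the complex at -0.17 (limma adjusted p = 0.151).

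In complex IV, Cox7c read 2270.1 and 2134 in SHR nicotine and saline and 1887 and 1913 in BN nicotine and saline, higher in SHR by 0.21 ± 0.065 with no overlap (limma adjusted p = 0.0298). Cox7a2l, also called SCAF1, which joins complex III and complex IV in supercomplexes, read 442 in SHR nicotine, 538 in SHR saline, 622 in BN nicotine and 574 in BN saline. Both SHR pools were below both BN pools, by -0.29 ± 0.092 (limma adjusted p = 0.0345), and the difference was -0.15 without the SHR nicotine pool and -0.44 without the SHR saline pool. Cox4i1, the ubiquitous form of a structural subunit, differed by -0.042 and did not pass.

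In complex V the calls were both lower in SHR. Atp5mf, a small subunit of the membrane part, read 1923 and 1861 in SHR nicotine and saline and 2164 and 2313 in BN nicotine and saline, a difference of -0.24 ± 0.066 (limma adjusted p = 0.0151). A complex V probe set with several symbols read 959 and 917 in SHR nicotine and saline and 1327 and 1117 in BN nicotine and saline, a difference of -0.38 ± 0.072 (limma adjusted p = 0.00107). Its difference lay between -0.50 without the BN saline pool and -0.25 without the BN nicotine pool. Atp5f1b, the subunit that catalyses ATP synthesis, stayed near 0 at 0.016, and its partner Atp5f1a was at 0.086. Neither passed, but under quantile normalization Atp5f1b was lower and passed, at -0.15. The highest difference was 0.18 for Atp5pd, a stalk subunit (limma adjusted p = 0.0819). Atp5if1 had 1 probe set bright enough to test, which differed by -0.20 (limma adjusted p = 0.0932), and 2 below the floor on all arrays. Atp5me, a membrane subunit, had 1 probe set tested at 0.15 (limma adjusted p = 0.246) and 1 below the floor.

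**Figure D4:**
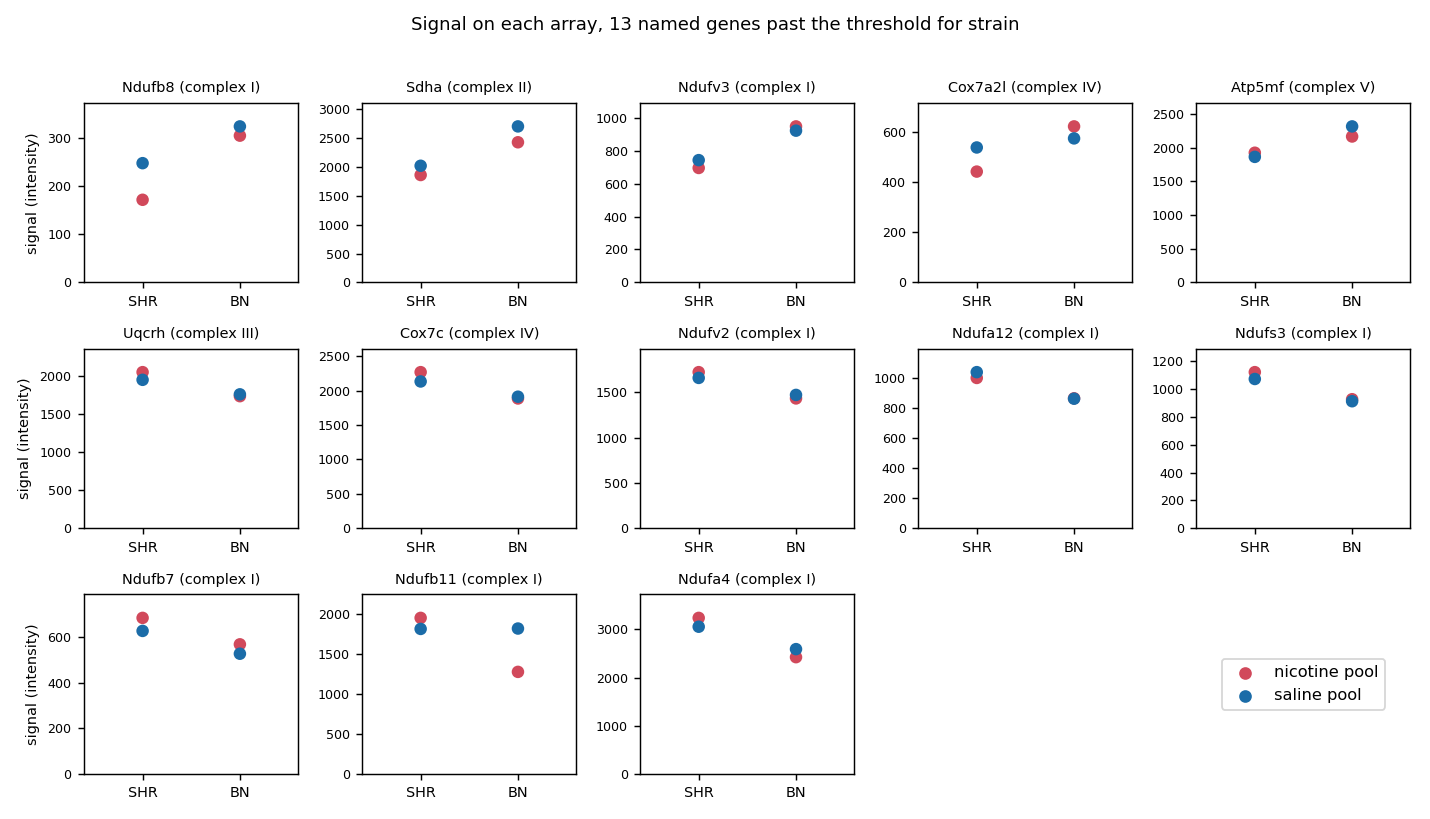
Signal intensity on each array (vertical axes from 0, 1 scale a panel) for the 13 named genes that passed for strain, with SHR pools on the left and BN pools on the right; each point is 1 pool of 12 or 13 animals, coloured by nicotine or saline, and there are no error bars. The strains separate in every panel except Ndufb11, where BN saline at 1822 lies above SHR saline at 1817.

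The printed promoters can be set beside these calls. All 5 promoters of named genes called lower held at least 1 of the 3 motifs, with NRF1 letters in Sdha, Ndufv3 and Cox7a2l and YY1 letters within the first bases of the transcript in Ndufb8 and Atp5mf. Of the 8 promoters of genes called higher, 3 held one: NRF1 letters in Ndufa12 and ETS letters in Ndufb7 and Uqcrh. Among tested genes that were not called, 35 of 52 promoters held at least 1. These counts are over the whole windows from 250 bases before to 50 after the start, of which 120 bases of 6 genes are printed, and they were given no test.

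Nicotine before birth was compared with saline in each strain and averaged over both. No member passed for the average (0 of 80, limma, Benjamini-Hochberg), and none of the 6929 probe sets tested passed either, or 0%. At an unadjusted p under 0.05, limma gave 5 members, or 6.25%, against 5.46% of all probe sets. The member with the lowest adjusted p was Ndufa3, a membrane arm subunit of complex I, which read 1279 in SHR nicotine and 1623 in SHR saline, and 1219 in BN nicotine and 1334 in BN saline. The nicotine pool was the lower one in both strains, with an average of -0.24 on the log2 scale (unadjusted p = 0.00455, limma adjusted p = 0.461). It passed only when the test was limited to probe sets with a mean at or above 500 (limma adjusted p = 0.0461). In that fit 14 of all 1350 probe sets tested passed for nicotine. Also at an unadjusted p under 0.05 (limma) were Ndufb8 at -0.31, Cox5a at -0.23 and Sdha at -0.14. Each had the lower signal under nicotine in both strains. The last of the 5 members was the unnamed complex V probe set at 0.16.

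Averages by complex were all close to 0. The median nicotine difference on the log2 scale was -0.024 in complex I, 0.012 in complex II, -0.0066 in complex III, 0.0091 in complex IV and -0.014 in complex V, against 0.0010 over all probe sets. The highest and lowest members of each complex, none of which passed, were Ndufb5 at 0.16 and Ndufb8 at -0.31 in complex I, Sdhc at 0.076 and Sdha at -0.14 in complex II, and Uqcrc1 at 0.064 and Uqcrq at -0.094 in complex III. In complex IV they were Cox6a1 at 0.13 and Cox5a at -0.23, and in complex V the unnamed probe set at 0.16 and Atp5pb at -0.092.

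Within a strain there is 1 array a side, so ratios were counted and not tested. In SHR, 2 of 81 measured members were at least 1.2-fold higher under nicotine, or 2.47% against 8.58% of all probe sets, and 4 were at least 1.2-fold lower, or 4.94% against 9.20%. The higher ones were Ndufb5 of complex I at 1.25-fold (959 against 768) and the dim pseudogene probe set Cox6c-ps1 at 1.40-fold (95.6 against 68.4). The lower ones were Ndufb8 at 1.44-fold (171 against 247), Ndufa3 at 1.27-fold, Cox5a at 1.26-fold (208 against 263) and Cox7a2l at 1.22-fold (442 against 538). A brighter complex IV probe set with Cox5a among its several symbols read 2744 against 2692 there, 1.02-fold higher. In BN, none of 80 was at least 1.2-fold higher, against 7.67% of all probe sets, and 2 were lower, or 2.50% against 6.08%. These were Ndufb11 at 1.43-fold (1278 against 1822) and Ndufb1 at 1.21-fold (742 against 895), both membrane arm subunits. Most members are bright, and dim probe sets scatter more. Among probe sets with a mean at or above 500, 1 of 75 members was at least 1.2-fold higher in SHR and 2 were lower, against 3.11% and 2.76% of all such probe sets. In BN 0 of 75 were higher and 2 lower, against 1.63% and 1.13%.

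No member that reached 88.9 on either array of a strain was 1.5-fold apart in that strain. The dimmer Cox4i2 read 87.3 in SHR nicotine against 56.8 in SHR saline, 1.54-fold higher, and was not counted. Over all probe sets 1.07% were at least 1.5-fold higher and 0.903% lower in SHR, and 0.734% and 0.893% in BN. At or above 500 these were 2 and 3 of 1413 probe sets in SHR and 2 and 0 of 1411 in BN. Over members the SD of the log2 nicotine ratio was 0.14 in SHR and 0.11 in BN. Over all probe sets it was 0.21 and 0.20. At or above 500 the member SD was 0.10 in SHR and 0.11 in BN, against 0.14 and 0.11 over all such probe sets. The ratio had the same sign in both strains for 35 of 80 members, and the correlation between the strains across the 80 members was 0.0022, a description of these 4 arrays; over all 7047 probe sets the signs were the same for 3420 and the correlation was -0.029.

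**Figure D5:**
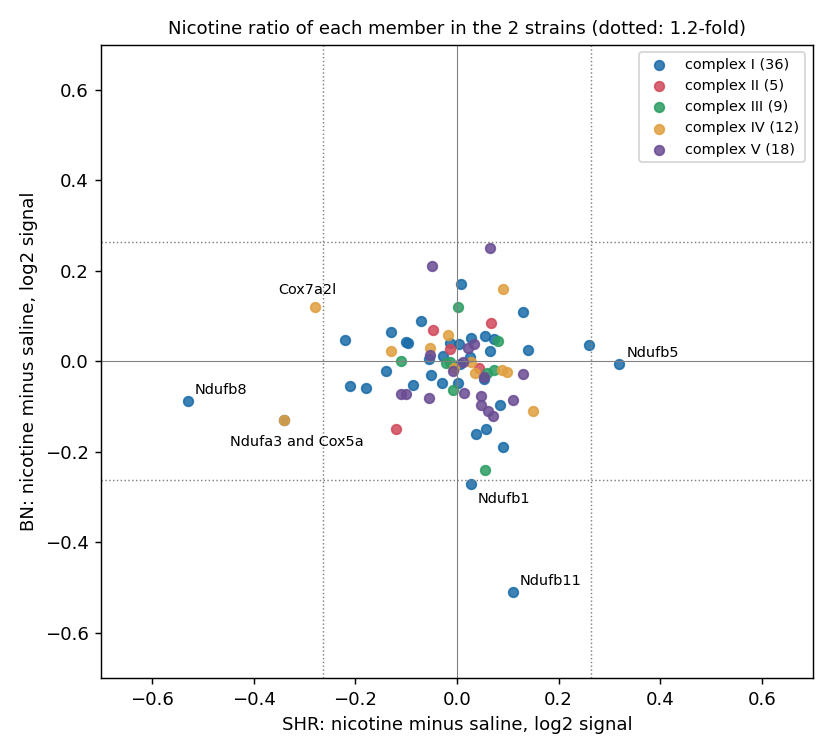
Nicotine minus saline in log2 signal for each of the 80 members measured in both strains, SHR on the horizontal and BN on the vertical axis, coloured by complex; each point rests on 1 array a side, and dotted lines mark 1.2-fold. Few of the 80 points lie past a line, among them Ndufb8 in SHR and Ndufb11 in BN.

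Genes that build, feed and supply the chain were read from 5 lists of other genes. In all, 14 of their 90 tested probe sets passed for strain, 5 higher and 9 lower in SHR, or 15.6% against 18.0% of all probe sets. Among assembly factors, 33 probe sets were tested, and 4 were higher and 1 lower in SHR, with a median difference of 0.036. Foxred1, which helps to build complex I, was 1.69-fold lower in SHR, reading 65.9 and 68.4 in SHR nicotine and saline against 119.0 and 108.0 in BN nicotine and saline (limma adjusted p = 0.00555). Acad9, another complex I assembly factor, was 1.37-fold higher, reading 194 and 203 against 150.0 and 141 (limma adjusted p = 0.0152). Cox18 and Pet100, which help to build complex IV, and Higd1a, a small inner membrane protein, were higher by 0.54, 0.45 and 0.26 on the log2 scale (limma adjusted p between 0.0182 and 0.0489). None of the 4 higher calls passed when any 1 array was left out, and Pet100 ranged from 0.22 to 0.67 there. In those fits the list kept 1 lower call without either SHR pool and none without either BN pool.

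Among electron carriers and other entry points, 14 probe sets were tested, with 1 higher and 3 lower in SHR and a median of 0.051. The lower ones included Coq9 and Coq8a, which act in ubiquinone synthesis, and Sqor, which passes electrons from sulfide to ubiquinone. Coq9 read 466 and 464 in SHR nicotine and saline against 637 and 629 in BN nicotine and saline, 1.36-fold lower in SHR (limma adjusted p = 0.000522). Its difference of -0.44 stayed between -0.45 and -0.44 when any 1 array was left out, and it passed in each of these fits except that without the BN nicotine pool, where Sqor was the call of the list. Sqor was 1.47-fold lower (limma adjusted p = 0.00138) and Coq8a 1.25-fold lower (limma adjusted p = 0.0249), while Coq10b, a ubiquinone-binding protein, was 1.31-fold higher (limma adjusted p = 0.0455). With any 1 array left out, 1 call of this list was left (Coq9, or Sqor without BN nicotine), and Coq10b ranged from 0.25 to 0.52.

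Vdac1, the main channel for ATP and ADP in the outer membrane, was lower in SHR by both of its probe sets, at -0.39 and -0.24 on the log2 scale (limma adjusted p = 0.000485 and 0.0141). The brighter probe set read 1844 and 1973 in SHR nicotine and saline and 2265 and 2245 in BN nicotine and saline. These were the 2 calls among 9 probe sets of nucleotide and phosphate exchange, and the ADP/ATP carriers Slc25a4 and Slc25a5 did not pass, at 0.10 and 0.017. Of 8 probe sets of regulators and mitochondrial DNA maintenance, Polg2, the accessory subunit of the mitochondrial DNA polymerase, was 1.46-fold lower in SHR (limma adjusted p = 0.00417). The mitochondrial transcription factor Tfam was at 0.052 and did not pass. Of 26 probe sets for import and inner membrane structure, 2 were lower: Timm50, part of the inner membrane import channel, at -0.35 (limma adjusted p = 0.0374), and Hspa9, the matrix chaperone, at -0.26 (limma adjusted p = 0.0152). The other Hspa9 probe sets were at -0.011 and 0.44 and did not pass, so its probe sets disagree. With 1 array left out the exchange list had between 0 and 2 calls, and neither the regulator nor the import list had any (0 of each, limma, Benjamini-Hochberg). No probe set of the 5 lists passed for nicotine.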

How the data were processed

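Per the labels' protocols, total RNA was isolated with Trizol, and per the design text the RNA of each group was pooled before hybridisation. The deposited values are MAS5 signal intensity on a linear scale; MAS5 is named in the submitters' processing notes, without a version or settings. The authors' intensity values had a 2% trimmed mean of 150.0 on each of the 4 arrays and were not scaled again. Gene names came from the platform annotation, updated to RefSeq symbols, and promoters from the RefSeq table of GRCr8.

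Signals under the floor of 44.4 were raised to it before log2, so a ratio of a dim probe set is understated. Strain and nicotine were fitted over all 4 arrays with limma 3.58.1 in R 4.3.3 (additive model, eBayes with an intensity trend, Benjamini-Hochberg at 0.05 over all probe sets tested). This leaves 1 residual degree of freedom; eBayes added 16.4 prior degrees for strain and 14.3 for nicotine. The p-values and the SE values therefore rest mostly on a spread that eBayes drew from all probe sets of these 4 arrays. They rest little on each probe set's own spread. Neither the p-values nor the SE values measure the spread between animals, and precision is limited by the 4 arrays. The fit was tested on simulated data.

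The members and gene lists were chosen with earlier results of these data known. Named are all members that passed, the highest and lowest of each complex, genes with several probe sets, tissue isoforms and core subunits; members named beyond these were picked with their values in view. Alternatives covered normalization, floor, filter, probe set choice, the eBayes trend, the model and each array left out.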

Additional observations from a re-analysis of the deposited data

How the results depend on the processing

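No called member changed sign under any alternative. Against 8 members called higher and 6 lower in SHR, the counts were 4 and 6 with a floor taken from the 20th percentile, 0 and 0 with no filter on dim probe sets, and 0 and 1 without the intensity trend. Over all probe sets 0 of 15866 passed with no filter, and 8.67% of 7047 without the trend, against 1.25% of members. With the lower floor 9.80% of 11213 probe sets passed, against 11.5% of members. The 6 lower calls there were not the same members. Cox7a1, too dim to test in the main setting, was called with the largest difference, and Cox7a2l was not called (limma adjusted p = 0.0780). The share of member calls that were higher was thus 4 of 10 with that lower floor, against 57.1% in the main setting. Of all calls with the lower floor, 48.1% were higher. With 1 array left out, between 0 and 3 members were called higher and between 1 and 4 lower. Over 13 alternatives, Sdha, Ndufv3 and Ndufa4 were each called in 9, and Ndufb11 and Cox7a2l in 4. Quantile normalization called Atp5f1b at -0.15, where the main value was 0.016 and not called. Limited to probe sets at or above 500, 18 members were called for strain, and 551 of all 1414 probe sets. For nicotine 1 member was called in that setting, and 14 of all 1350 probe sets tested.

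Members 1.5-fold apart under nicotine numbered 2 in SHR and 1 in BN with the lower floor, and 1 in SHR with no filter (Cox4i2, 1.54-fold higher). The nicotine median of complex I was -0.015 with the lower floor or no filter and -0.0066 at or above 500. With 1 probe set a gene the strain median of complex II was -0.048, against 0.034, and the nicotine median of complex III was 0.0052. Quantile normalization gave a strain median of 0.079 for complex III.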
